A study of Mus musculus with 24 samples.

Results

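The 9 genes described here encode mouse enzymes and binding proteins of retinoid metabolism: Aldh1a1, Aldh1a2, Aldh1a3, Rdh10, Dhrs3, Rbp2, Bco1, Bco2 and Lrat. They are 9 of 36528 genes counted in small intestinal organoids in which the Wnt receptor Frizzled 7 was blocked. They were picked as a list of symbols with earlier results in view. In those results Aldh1a3 was higher early under the blocking peptide and lower later in culture, and Bco2 was higher later in culture. The comparisons of dFz7-21 with its controls at 6 h and of 24 h with 6 h are therefore given as descriptions, without tests. The comparisons at 24 h between treatments, and those between the 2 control treatments, were tested.

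The organoids were primary cultures of mouse small intestine, and polyadenylated RNA was sequenced. In the order of the comparisons the groups were dFz7-21 at 24 h, Fz7-21S at 24 h, DMSO at 24 h, dFz7-21 at 6 h, Fz7-21S at 6 h and DMSO at 6 h, with 4 libraries in each of the 6 groups. The labels describe dFz7-21 as a peptide that blocks Frizzled 7, DMSO was the solvent control, and Fz7-21S is the study's control peptide, given by its name alone. Strain, age, dose and medium are not stated in the labels. Nor do the labels say whether the 4 libraries of a group came from separate cultures or animals, so the p-values measure the spread between these libraries, which may be technical.

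In the absorptive cells of the gut, beta-carotene from food is cut by BCO1 into retinal, and carotenoids are cut off-centre by BCO2 in mitochondria. Retinol and retinal are carried inside the cell by RBP2, and LRAT joins retinol to a fatty acid for export in lipid particles. RDH10 oxidises retinol to retinal, and DHRS3 reduces retinal back to retinol. ALDH1A1, ALDH1A2 and ALDH1A3 oxidise retinal irreversibly to retinoic acid, the ligand of the RAR nuclear receptors.

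The promoters of Bco1 and Rbp2 are shown because, among the promoter windows of these genes, they were those holding the hexamer AGGTCA, the core that RAR, RXR and related nuclear receptors bind. Both are given 5′ to 3′ on the + strand of GRCm38.p6 from RefSeq start sites, and capitals mark the hexamer read on the opposite strand together with its adjoining matched bases. The Bco1 stretch, chr8:117095615-117095853, ends where the first exon of Bco1 begins in the GENCODE annotation. The Rbp2 stretch, chr9:98490287-98490536, ends at the base before the RefSeq start.
Bco1: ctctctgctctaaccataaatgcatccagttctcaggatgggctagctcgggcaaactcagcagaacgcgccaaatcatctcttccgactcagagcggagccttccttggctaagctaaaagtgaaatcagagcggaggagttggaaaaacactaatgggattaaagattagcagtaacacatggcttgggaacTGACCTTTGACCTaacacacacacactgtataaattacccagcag
Rbp2: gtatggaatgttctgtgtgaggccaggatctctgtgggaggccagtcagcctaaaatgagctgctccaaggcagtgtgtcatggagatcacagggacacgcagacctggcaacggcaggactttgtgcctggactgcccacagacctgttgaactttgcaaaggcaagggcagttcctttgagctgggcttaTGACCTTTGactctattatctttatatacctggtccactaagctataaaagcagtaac

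The letters in capitals in Bco1 are the reverse complement of the direct repeat AGGTCANAGGTCA. They lie at bases -56 to -44, counted back from the end of the Bco1 window, chr8:117095615-117095864. The RefSeq span of Bco1 given below begins at 117095851, inside that window, so the count is not from that start. Of 32851 promoter windows of 250 bases, 11 held that repeat on either strand, which is 0.0335%. The capitals in Rbp2 are the reverse complement of CAAAGGTCA, at bases -58 to -50. This longer spelling, which contains AGGTCA, was chosen after the sequences had been read, is also present in Bco1, and occurred in 0.426% of the windows. The bare hexamer AGGTCA occurred in 14.0% of windows and TATAAA, which both stretches also hold, in 12.4%. RefSeq windows were matched for 7 of the 9 genes, 11 windows in all, and the other 9 windows held no AGGTCA. None of the 11 windows held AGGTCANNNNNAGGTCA, CAAAGTCCA or CTTTGAT, searched on both strands and present in 0.00913%, 0.384% and 3.21% of all windows. These matches are letters in a window and carry no measurement of binding.

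The libraries held between 20446610 and 33102993 counted reads. The epithelial markers were high throughout, and at 24 h the summed level of 5 stem cell markers was 248 to 369.5 CPM (read counts scaled to a common library size) under dFz7-21, 2029.7 to 2319 under Fz7-21S and 2043 to 2739 under DMSO. Mesenchymal transcripts marked 3 libraries: dFz7-21 at 24 h replicate 3 and DMSO at 6 h replicates 1 and 2 had summed levels of 979, 206 and 144 CPM over 12 markers, of which Dcn and Lum were at 0 in all 24 libraries. Fz7-21S at 24 h replicate 4 stood apart from the other 3 of its group on the first principal component.

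At 24 h, 8 of the 9 genes had enough reads to be tested, and 6 of these were called against each control at an adjusted p below 0.05. Aldh1a1, Dhrs3, Bco1 and Bco2 rose against both DMSO and Fz7-21S, and Rdh10 fell against both. Rbp2 rose against DMSO and Lrat against Fz7-21S. Against DMSO, 5 rose and 1 fell, where 35.9% of 15429 genes were called, 18.2% higher and 17.7% lower. Against Fz7-21S, 5 rose and 1 fell, where 33.7% were called, 16.5% higher and 17.2% lower. The median log2 fold change of the 8 genes was 0.54 against DMSO and 0.34 against Fz7-21S, and that of all genes was -0.01 in both. All p-values are from edgeR's quasi-likelihood test with Benjamini-Hochberg adjustment over all genes tested. The 24 h libraries of these tests also entered the comparisons over time that guided the choice of genes, and both tests share the dFz7-21 libraries.

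**Figure D1:**
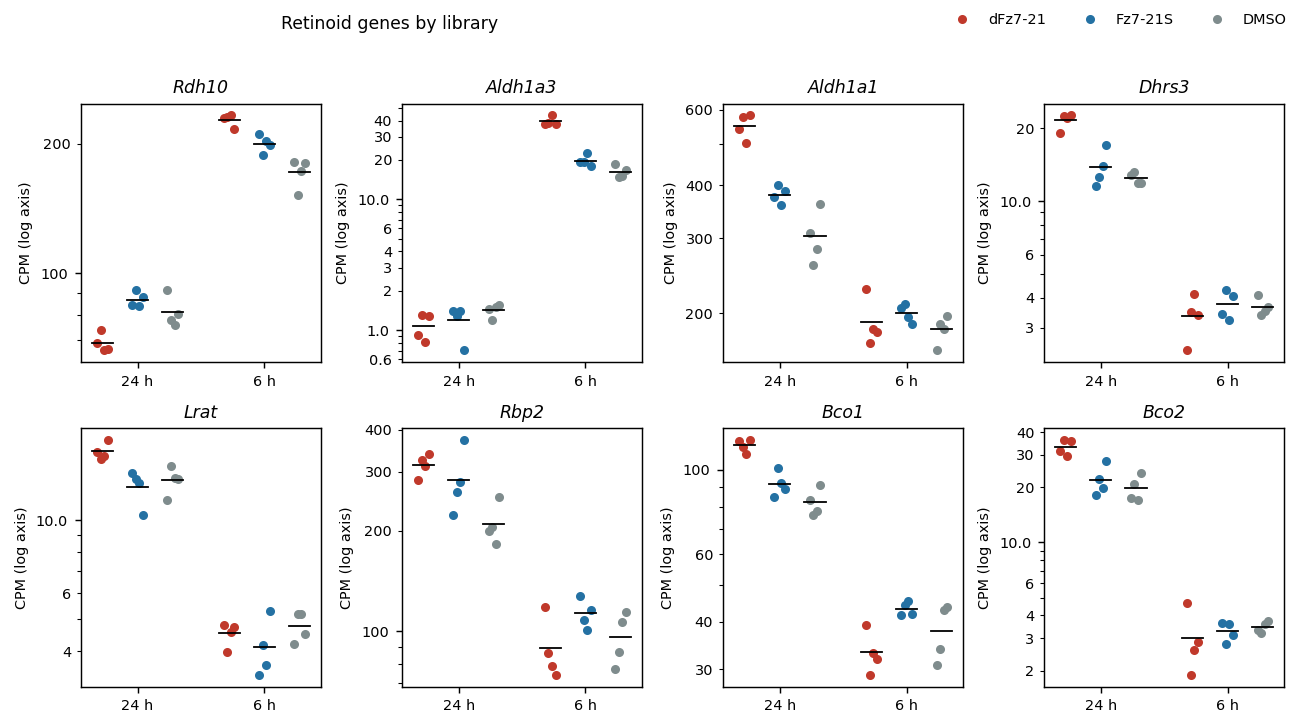
Level of each of the 8 tested genes in every library, in CPM on a log axis. Points are libraries, black lines are group means (n = 4), and at each time dFz7-21 is left of Fz7-21S and DMSO. At 24 h the dFz7-21 libraries of Aldh1a1, Dhrs3, Lrat, Bco1 and Bco2 lie above all libraries of both controls, and those of Rdh10 lie below them. The share of all genes that separate in this way is not given.

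Among the carotenoid-cleaving enzymes, Bco2, at chromosome 9, 50533087 to 50555214 (GRCm38, RefSeq span, as for all genes below), had 31.5, 36.1, 29.6 and 35.7 CPM in the 4 dFz7-21 libraries at 24 h. It had 18.2, 22.1, 19.8 and 27.8 CPM under Fz7-21S and 17.6, 20.8, 17.0 and 24.1 CPM under DMSO. All dFz7-21 libraries were above all control libraries, and the controls overlapped each other. Bco2 rose by a log2 fold change of 0.74 ± 0.16 (standard error) against DMSO, adjusted p = 0.000722 in edgeR, and by 0.60 ± 0.16 against Fz7-21S, adjusted p = 0.00549. The 5′ end of Bco2 overlaps that of the divergent gene Il18 by 515 bases. Reads there cannot be told apart without strand, and no source used here states whether counting used it. Il18, a cytokine gene, averaged 15.3 CPM under dFz7-21, 12.3 under Fz7-21S and 11.7 under DMSO at 24 h. Its log2 fold changes were 0.39 against DMSO (adjusted p = 0.0253 in edgeR) and 0.31 against Fz7-21S (adjusted p = 0.0705). The call against DMSO was lost without dFz7-21 replicate 2 (adjusted p = 0.111), DMSO replicate 3 (0.0658) or DMSO replicate 4 (0.057). Against Fz7-21S, Il18 was called with RLE size factors (0.0479), DESeq2 (0.0277), without the 3 libraries with mesenchymal transcripts (0.0203), without dFz7-21 replicate 3 (0.0171) or without Fz7-21S replicate 4 (0.0129), as adjusted p.

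Bco1, at chromosome 8, 117095851 to 117133720, ranged over 110.3 to 119.7 CPM under dFz7-21, 84.7 to 100.9 under Fz7-21S and 75.9 to 91.5 under DMSO at 24 h. Here too the dFz7-21 libraries lay above every control library. Bco1 rose by 0.49 ± 0.09 against DMSO on the log2 scale (adjusted p = 0.000198 in edgeR) and by 0.34 ± 0.09 against Fz7-21S (adjusted p = 0.00754).

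Rbp2, the retinol carrier of absorptive cells, lies at chromosome 9, 98490537 to 98509771. It had 284, 325, 312 and 337 CPM under dFz7-21 at 24 h. The Fz7-21S libraries had 222, 260.1, 279 and 372 CPM and the DMSO libraries 200.1, 205, 183 and 252 CPM. The dFz7-21 libraries were all above the DMSO libraries, whereas Fz7-21S replicate 4 was above every dFz7-21 library. Rbp2 rose by 0.58 ± 0.15 against DMSO (adjusted p = 0.00386 in edgeR). Against Fz7-21S the log2 fold change was 0.15 ± 0.15, with a 95% interval of -0.16 to 0.46 (adjusted p = 0.468), and 0.33 without Fz7-21S replicate 4 (adjusted p = 0.106).

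Lrat, which esterifies retinol, lies at chromosome 3, 82892582 to 82903974. Its levels at 24 h were 16.1, 15.3, 15.7 and 17.5 CPM under dFz7-21. They were 13.9, 13.3, 12.9 and 10.3 CPM under Fz7-21S and 11.5, 14.6, 13.4 and 13.3 CPM under DMSO. The dFz7-21 libraries were above all libraries of both controls by a small margin. Lrat rose by 0.35 ± 0.12 against Fz7-21S (adjusted p = 0.0219 in edgeR), a call lost when only those 2 groups were fitted (adjusted p = 0.0612). Against DMSO the log2 fold change was 0.29 ± 0.12 and missed the threshold at an adjusted p of 0.0529, over alternatives that ranged between 0.0145 and 0.142.

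Rdh10, which makes retinal from retinol, lies at chromosome 1, 16105882 to 16132550. It had 68.6, 73.5, 66.1 and 66.4 CPM under dFz7-21 at 24 h. The Fz7-21S libraries had 84.1, 91.2, 83.7 and 88.0 CPM and the DMSO libraries 91.4, 77.9, 75.6 and 80.1 CPM. All dFz7-21 libraries were below all control libraries, the opposite side from the genes above. Rdh10 fell by 0.24 on the log2 scale against DMSO (standard error 0.06, adjusted p = 0.00347 in edgeR) and fell by 0.34 against Fz7-21S (standard error 0.06, adjusted p = 0.000172).

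Dhrs3, which reduces retinal to retinol and so runs opposite to RDH10, lies at chromosome 4, 144892534 to 144928209. Its dFz7-21 libraries had 19.1, 22.4, 22.1 and 22.6 CPM at 24 h. Fz7-21S libraries had 11.6, 12.6, 14.0 and 17.1 CPM, and DMSO libraries 12.8, 13.1, 11.9 and 11.9 CPM. All dFz7-21 libraries were higher than all controls. Dhrs3 rose by 0.79 ± 0.12 against DMSO (adjusted p = 1.87e-05 in edgeR) and by 0.64 ± 0.12 against Fz7-21S (adjusted p = 0.000272). The RefSeq span of Vps13d covers all of Dhrs3. Vps13d itself had log2 fold changes of 0.19 and 0.33 against DMSO and Fz7-21S and was not called in either (adjusted p = 0.329 and 0.0841 in edgeR).

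Aldh1a1 was the most abundant retinal dehydrogenase, at chromosome 19, 20492583 to 20643463. It had 542, 579, 501 and 583 CPM under dFz7-21 at 24 h. The Fz7-21S libraries had 374, 400.5, 359 and 386 CPM and the DMSO libraries 309, 260.3, 283 and 362 CPM. The dFz7-21 libraries were the highest 4 of the 12, and the controls overlapped only where the top DMSO library passed the lowest Fz7-21S library. Aldh1a1 rose by 0.86 ± 0.09 against DMSO (adjusted p = 5.62e-08 in edgeR) and by 0.54 ± 0.09 against Fz7-21S (adjusted p = 5.01e-05). Its close paralog Aldh1a7 lies at chromosome 19, 20692953 to 20727556. Sequence identity and shared reads of the pair were not measured, so the split of reads between them is uncertain. Aldh1a7 averaged 86.6 CPM under dFz7-21, 57.6 under Fz7-21S and 45.1 under DMSO. It rose by 0.94 ± 0.10 against DMSO (adjusted p = 1.62e-07 in edgeR) and 0.59 ± 0.10 against Fz7-21S (adjusted p = 9.96e-05).

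Aldh1a3, at chromosome 7, 66390892 to 66427477, was near the bottom of the range at 24 h, with 0.916, 1.31, 0.810 and 1.29 CPM under dFz7-21. It had 1.41, 1.28, 1.41 and 0.704 CPM under Fz7-21S and 1.46, 1.19, 1.51 and 1.57 CPM under DMSO. The 3 groups overlapped, and they rested on 97, 117 and 156 reads in all. Aldh1a3 was not called against DMSO (log2 fold change -0.41 ± 0.19, adjusted p = 0.0887 in edgeR) or against Fz7-21S (-0.17 ± 0.20, adjusted p = 0.529).

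Aldh1a2, at chromosome 9, 71215789 to 71296243, is the retinal dehydrogenase best known from mesenchyme and from dendritic cells of the gut. It had 10 reads over all 24 libraries and was not tested. At 24 h there were 4 reads under dFz7-21 and 0 under each control, and at 6 h 0 under dFz7-21, 2 under Fz7-21S and 4 under DMSO. The 4 dFz7-21 reads at 24 h were in replicates 2 and 4, with 0 in replicate 3, which held mesenchymal transcripts. The 2 Fz7-21S reads at 6 h were in replicates 2 and 4, and the 4 DMSO reads in replicates 1 and 2, the pair with mesenchymal transcripts. A count of 3 reads, the limit that 0 allows, corresponded to between 0.0906 and 0.147 CPM in these libraries, counting error only.

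**Figure D2:**
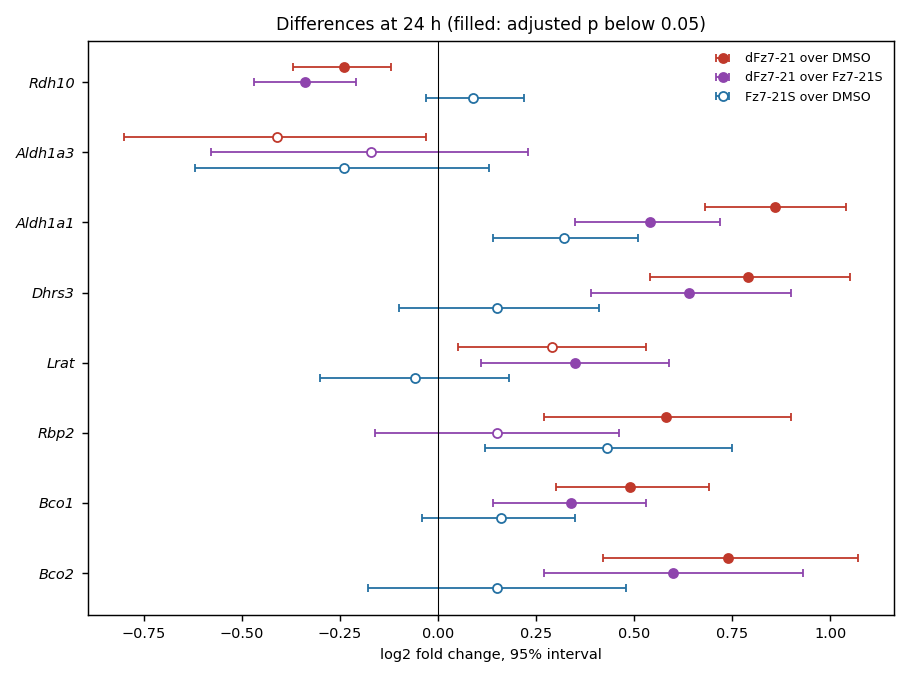
Log2 fold change of the 8 tested genes at 24 h for dFz7-21 over DMSO, dFz7-21 over Fz7-21S and Fz7-21S over DMSO. Points are edgeR estimates with 95% intervals, filled where the adjusted p was below 0.05. No Fz7-21S over DMSO point is filled, and Rdh10 is the gene with filled points left of 0.

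The summed level of markers of absorptive cells was also higher under dFz7-21 at 24 h. The summed level of 12 enterocyte markers, all 12 of them in the fit, was 8642 to 10177 CPM under dFz7-21, 6013 to 7144 under Fz7-21S and 5232 to 6288 under DMSO at 24 h. Alkaline phosphatase Alpi, a member of that list, rose by 1.29 ± 0.10 against DMSO and 1.16 ± 0.10 against Fz7-21S (adjusted p = 7.76e-10 and 6.05e-09 in edgeR). A sum does not show how each marker moved. Alpi, and Mttp below, do not stand for the list. Apoa1 and Fabp2, also on it, had their highest level in a control library, Fz7-21S at 24 h replicate 4. Changes of single markers other than Alpi and Mttp are not given. Other epithelial markers differed as well. The summed level of 5 Paneth cell markers was 2132 to 2496 CPM under dFz7-21, 3426 to 4863 under Fz7-21S and 3233 to 3825 under DMSO at 24 h. That of 5 goblet cell markers was 2154 to 2569 CPM under dFz7-21, 1848 to 2203 under Fz7-21S and 1750.5 to 1931 under DMSO, overlapping between dFz7-21 and Fz7-21S. The part of these markers in the results was not tested. In bulk libraries, a change in the number of cells of a type and a change in RNA per cell cannot be told apart. Without the 3 libraries with mesenchymal transcripts, 6 of the 8 genes were again called against each control at 24 h. Of all genes tested, 4881 were called against DMSO and 4505 against Fz7-21S in that fit. The log2 fold changes were then 0.90 for Aldh1a1, 0.78 for Dhrs3, 0.80 for Bco2, 0.52 for Bco1, 0.59 for Rbp2 and -0.23 for Rdh10 against DMSO.

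Between the control treatments no retinoid gene of the 8 was called by edgeR at 24 h, where 0.259% of all genes were, or at 6 h, where 0.00648% were. At an unadjusted p below 0.05 in edgeR, 3673 genes (23.8%) passed at 24 h and 614 (3.98%) at 6 h. DESeq2 called 136 genes at 24 h and 4 at 6 h. Aldh1a1 was higher with Fz7-21S than with DMSO at 24 h by 0.32 ± 0.09 and Rbp2 by 0.43 ± 0.15, at unadjusted p of 0.00135 and 0.00825 and adjusted p of 0.153 and 0.162 in edgeR. Without Fz7-21S replicate 1, both were called (adjusted p = 0.0488 and 0.0454), and without DMSO replicate 4 Aldh1a1 was (adjusted p = 0.041). At 6 h the log2 difference of Fz7-21S from DMSO was 0.22 ± 0.06 for Rdh10 and 0.29 ± 0.12 for Aldh1a3, with unadjusted p of 0.00135 and 0.0217 and an adjusted p of 0.999 in edgeR for each. The 4 Fz7-21S libraries of Rdh10 were above the 4 DMSO libraries at 6 h, and those of Aldh1a3 overlapped with them.

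The 6 h values of dFz7-21 are what the genes were chosen on, and they differ in shape from those at 24 h. Aldh1a3 had 37.6, 38.4, 43.8 and 37.9 CPM under dFz7-21 at 6 h. Fz7-21S libraries had 19.3, 19.4, 22.5 and 18.03 CPM, and DMSO libraries 18.5, 14.7, 15.03 and 16.7 CPM. The dFz7-21 libraries were all above the controls, by a log2 difference of 1.28 ± 0.12 against DMSO and 0.99 ± 0.11 against Fz7-21S. Aldh1a3 was the member at or past 2-fold against DMSO, as were 2.37% of all genes, and none reached 2-fold against Fz7-21S, where 1.39% of all genes did. The gene sat just short of that line, and the next largest difference against DMSO was that of Rdh10.

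Rdh10 had 229, 231, 233 and 217 CPM under dFz7-21 at 6 h. Fz7-21S libraries had 210.3, 189, 203 and 199 CPM, and DMSO libraries 181, 152, 173 and 181 CPM. The 3 treatments did not overlap, with dFz7-21 highest and DMSO lowest. The log2 difference of dFz7-21 was 0.41 ± 0.06 from DMSO and 0.19 ± 0.06 from Fz7-21S, against the falls at 24 h given above.

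The genes that were higher at 24 h were not higher at 6 h. Aldh1a1 averaged 191 ± 25.8 CPM under dFz7-21, 200.2 ± 10.02 under Fz7-21S and 183 ± 14.2 under DMSO (SD, n = 4 each), and the 3 groups overlapped. Dhrs3, Lrat and Bco2 had log2 differences from DMSO of -0.12 ± 0.14, -0.08 ± 0.13 and -0.20 ± 0.20 at 6 h, also with overlapping libraries. Rbp2 and Bco1 were lower with dFz7-21 than with Fz7-21S at 6 h. Bco1 had 29.0 to 39.2 CPM under dFz7-21 and 41.6 to 45.4 under Fz7-21S, without overlap, a log2 difference of -0.38 ± 0.10, while its DMSO libraries spread over 30.8 to 43.6 CPM and overlapped with both. Rbp2 differed by -0.34 ± 0.15 from Fz7-21S, with overlap. Enterocyte marker sums at 6 h were 4486 to 5631 CPM under dFz7-21, 4644 to 5252 under Fz7-21S and 3876 to 5068 under DMSO, so they overlapped as well.

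**Figure D3:**
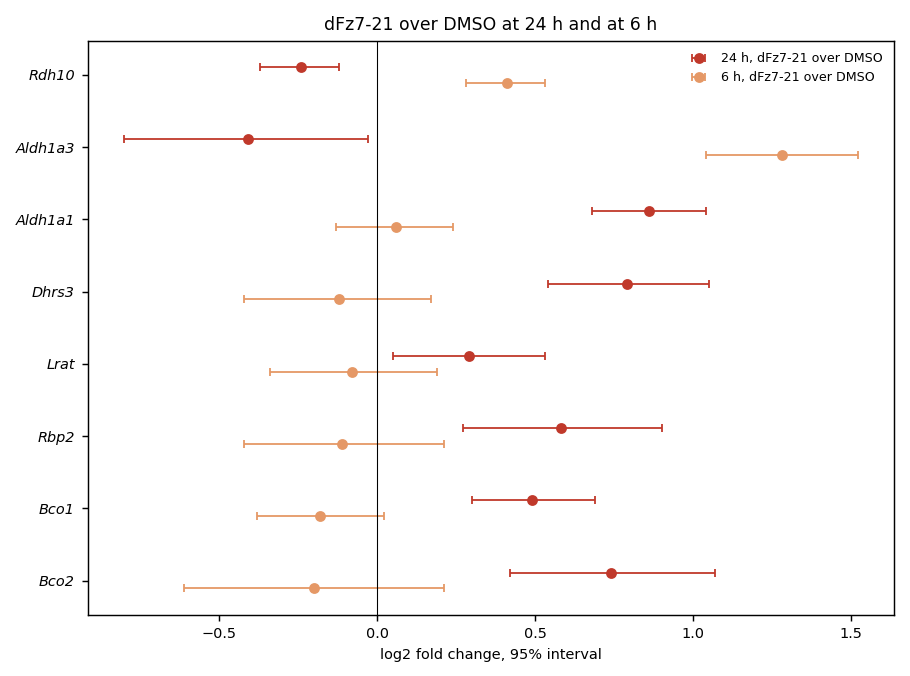
Log2 fold change of dFz7-21 over DMSO for the 8 genes at 24 h and at 6 h, with 95% intervals from edgeR. The 6 h values entered the choice of genes and are shown as a description. Rdh10 lies left of 0 at 24 h and right of it at 6 h, and Aldh1a1, Dhrs3, Rbp2, Bco1 and Bco2 lie right of 0 at 24 h with 6 h intervals that span 0.

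Culture time was also part of the choice, and its values are a description too. Under dFz7-21, 8 of the 8 genes differed at least 2-fold between 24 h and 6 h, as did 16.3% of all genes. Under Fz7-21S 7 of the 8 did, as did 13.6% of all genes, and under DMSO 7 of the 8, as did 12.0%, and Aldh1a1 was the gene short of 2-fold in each.

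Aldh1a3 averaged 1.08 ± 0.256 CPM at 24 h and 39.4 ± 2.94 CPM at 6 h under dFz7-21. The corresponding levels were 1.20 ± 0.337 and 19.8 ± 1.90 CPM under Fz7-21S, and 1.43 ± 0.167 and 16.3 ± 1.76 CPM under DMSO (SD, n = 4 each). The log2 difference of 24 h from 6 h was -5.19 ± 0.15 under dFz7-21, -4.02 ± 0.15 under Fz7-21S and -3.49 ± 0.14 under DMSO. Rdh10 was lower at 24 h as well, by -1.73 ± 0.06, -1.21 ± 0.06 and -1.08 ± 0.06 in the same order of treatments.

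Bco2 ran the other way, at 33.2 ± 3.21 CPM at 24 h and 3.01 ± 1.19 CPM at 6 h under dFz7-21. It had 22 ± 4.18 and 3.29 ± 0.400 CPM under Fz7-21S, and 19.9 ± 3.27 and 3.45 ± 0.235 CPM under DMSO. The log2 differences over time were 3.47 ± 0.19, 2.74 ± 0.18 and 2.52 ± 0.18 under dFz7-21, Fz7-21S and DMSO. Those of its neighbour Il18 were 1.98, 1.85 and 1.90 in the same order. Over time Dhrs3 differed by 2.68, 1.88 and 1.76, Lrat by 1.83, 1.61 and 1.46, Rbp2 by 1.82, 1.33 and 1.13, Bco1 by 1.80, 1.09 and 1.12, and Aldh1a1 by 1.53, 0.92 and 0.73, each on the log2 scale and in that order of treatments. Every one of these 5 genes was higher at 24 h than at 6 h in every library of each treatment. The share of all genes that separate in this way is not given here, so the separation is not read as particular to these genes. For Bco1 under DMSO the log2 difference was 0.93 without the DMSO libraries that held mesenchymal transcripts.

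Per transcript length, Rbp2 was the most abundant of the 9 genes in each of the 6 groups. In RPKM, the deposited reads scaled by length and by depth, it averaged 470.1 ± 34.8 under dFz7-21 at 24 h, 415 ± 90.7 under Fz7-21S at 24 h and 309.5 ± 44.0 under DMSO at 24 h. At 6 h it averaged 133 ± 29.7, 168 ± 16.7 and 143 ± 25.3 RPKM in that order of treatments (SD, n = 4 each). Under dFz7-21 at 24 h the order of mean levels was Rbp2, Aldh1a1 (272 RPKM), Bco1 (46.0), Rdh10 (30.0), Bco2 (13.2), Dhrs3 (7.73), Lrat (3.03), Aldh1a3 (0.320) and Aldh1a2, and no neighbouring pair overlapped. Under Fz7-21S and DMSO at 24 h, Rdh10 and Bco1 overlapped in level. Under DMSO at 6 h the order was Rbp2, Aldh1a1 (90.1 RPKM), Rdh10 (74.6), Bco1 (14.9), Aldh1a3 (4.77), Bco2 (1.36), Dhrs3 (1.31), Lrat (0.891) and Aldh1a2, and only Bco2 and Dhrs3 overlapped. The same held under Fz7-21S at 6 h, with Dhrs3 just ahead of Bco2. Under dFz7-21 at 6 h Aldh1a3, at 11.6 RPKM, overlapped with Bco1 at 13.1, Rdh10 at 99.1 overlapped with Aldh1a1 at 93.8, and Dhrs3, Bco2 and Lrat overlapped in turn.

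Shares were taken of the summed RPKM of the paralogs Aldh1a1, Aldh1a2, Aldh1a3 and Aldh1a7. At 24 h Aldh1a3 made up 0.101 ± 0.0173% of that sum under dFz7-21, 0.166 ± 0.0513% under Fz7-21S and 0.246 ± 0.0214% under DMSO. At 6 h its share was 10.1 ± 1.44% under dFz7-21, 5.12 ± 0.482% under Fz7-21S and 4.57 ± 0.726% under DMSO (SD, n = 4 each). Aldh1a1 held between 80.6% and 87.0% on average in each group, so the share of Aldh1a3 also moves with the level of Aldh1a1. At 24 h Aldh1a1 rose under dFz7-21 against both controls, and Aldh1a3 itself was not called against either.

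Over the 24 libraries, 4 of the 5 genes whose log2 CPM followed Aldh1a3 most closely, after centring each on its own mean, were Lama3, Krt6a, Fosl1 and Tead4. Their root mean square differences from it were 0.33, 0.46, 0.57 and 0.69 on the log2 scale, where Aldh1a3 itself spanned 5.81. For Bco2, which spanned 4.20, the 5 closest were Slc6a20a, Dmbt1, Tmem86a, Ugt2b5 and Slc25a45, with differences of 0.27, 0.30, 0.34, 0.34 and 0.35. The search covered 10909 genes, and libraries of the same group share their treatment and time.

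Of 72 other retinoid genes listed by role, 48 had enough reads to be tested. At 24 h, 20 rose and 5 fell against DMSO, with a median log2 fold change of 0.26, where 18.2% of all genes rose and 17.7% fell. Against Fz7-21S 19 rose and 7 fell, with a median of 0.19, where 16.5% of all genes rose and 17.2% fell. By role, 3 of 7 tested genes of uptake and transport rose and 2 fell against DMSO, as did 9 and 1 of 19 oxidoreductases and 3 and 1 of 5 genes of ester synthesis and hydrolysis. Of 10 receptors and cofactors 3 rose, of 3 binding proteins 1 rose and 1 fell, and of 4 genes that respond to retinoic acid 1 rose. Against Fz7-21S, 2 genes of uptake and transport rose and 2 fell, 8 oxidoreductases rose and 3 fell, and 3 genes of ester synthesis and hydrolysis rose and 1 fell. Of the receptors and cofactors 4 rose and 1 fell there, and 1 binding protein and 1 responsive gene rose. None of the 4 listed enzymes of retinoic acid degradation passed the filter.

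**Figure D4:**
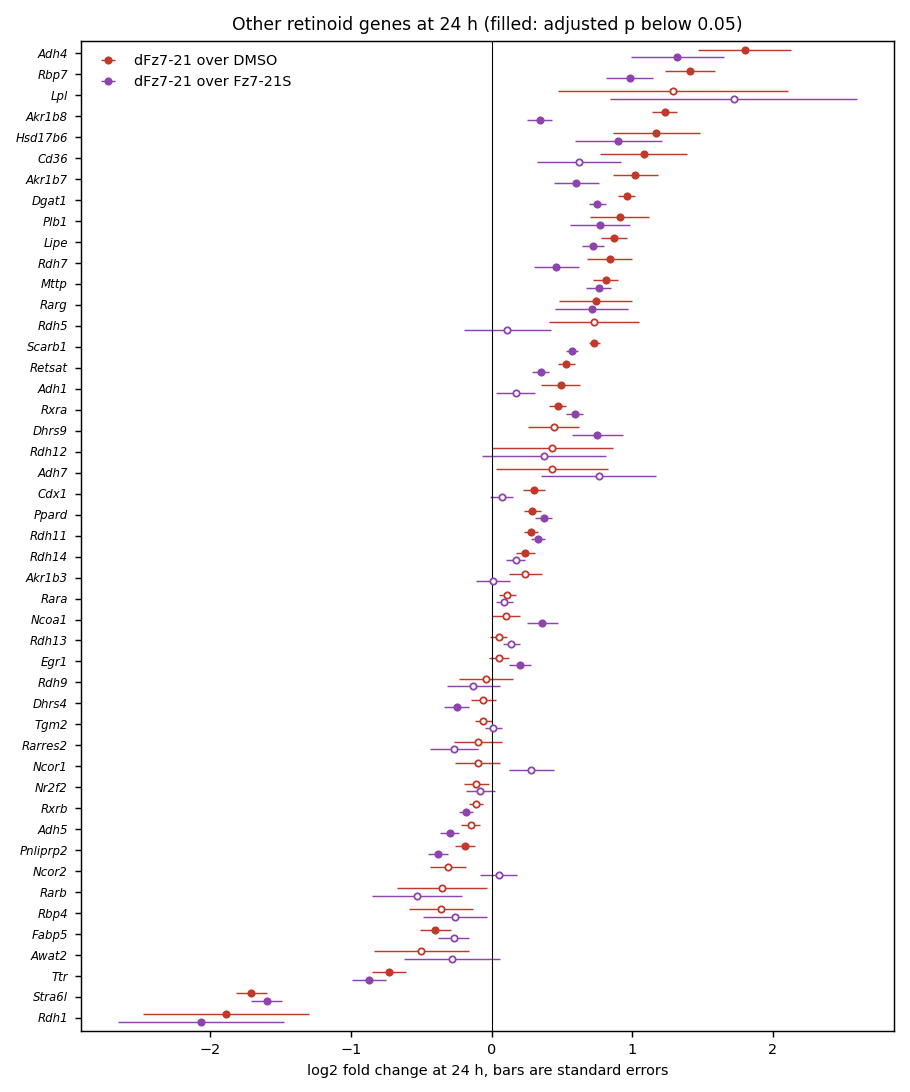
Log2 fold change at 24 h of 47 of the 48 tested genes of the wider retinoid list, for dFz7-21 over DMSO and dFz7-21 over Fz7-21S, with standard errors and filled where the adjusted p from edgeR was below 0.05. Dgat1, Lipe, Mttp and Scarb1 are filled right of 0 and Stra6l and Ttr left of 0 in both comparisons.

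Dgat1, an acyltransferase that can also esterify retinol, averaged 436 ± 10.7 CPM under dFz7-21, 260.2 ± 14.3 under Fz7-21S and 224 ± 14.0 under DMSO at 24 h (SD, n = 4 each). It rose by 0.96 ± 0.06 against DMSO (adjusted p = 4.21e-12 in edgeR) and 0.75 ± 0.06 against Fz7-21S (adjusted p = 3.44e-10). Scarb1, which takes up carotenoids and other lipids, rose by 0.73 ± 0.04 and 0.57 ± 0.04 (adjusted p = 1.28e-11 and 7.39e-10). Lipe, a lipase that can hydrolyse retinyl esters, rose by 0.87 ± 0.09 and 0.72 ± 0.08 (adjusted p = 2.21e-08 and 4.99e-07). Mttp, which loads lipid onto chylomicrons and is also on the enterocyte list, rose by 0.81 ± 0.09 and 0.76 ± 0.09 (adjusted p = 1.95e-07 and 6.43e-07). Stra6l, a receptor for retinol-binding protein, fell to 9.64 ± 1.503 CPM under dFz7-21, against 29.2 ± 3.65 under Fz7-21S and 31.5 ± 3.38 under DMSO. Its log2 fold changes were -1.71 ± 0.11 against DMSO and -1.60 ± 0.11 against Fz7-21S (adjusted p = 1.68e-11 and 7.60e-11 in edgeR).

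Akr1b8, an aldo-keto reductase, averaged 70.4 ± 2.62 CPM under dFz7-21, 55.6 ± 9.84 under Fz7-21S and 30.0 ± 3.78 under DMSO at 24 h. It rose by 1.23 ± 0.09 for dFz7-21 against DMSO (adjusted p = 4.30e-10 in edgeR) and also for Fz7-21S against DMSO, by 0.88 ± 0.09 (adjusted p = 2.25e-05), the sole call of the 48 genes between the controls at 24 h. That last call was lost when only those 2 groups were fitted (adjusted p = 0.291). For dFz7-21 against Fz7-21S Akr1b8 rose by 0.34 ± 0.09 with overlapping libraries (adjusted p = 0.00575 in edgeR), a call also lost when only those 2 groups were fitted (adjusted p = 0.0982). At 6 h none of the 48 was called between the controls.

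Of the nuclear receptors, Rxra averaged 204 ± 4.48 CPM under dFz7-21, 136 ± 14.5 under Fz7-21S and 148 ± 7.06 under DMSO at 24 h. It rose by 0.47 ± 0.06 against DMSO (adjusted p = 6.82e-07 in edgeR) and 0.59 ± 0.06 against Fz7-21S (adjusted p = 3.12e-08). Rara and Rarb were not called, with log2 fold changes of 0.11 and -0.35 against DMSO and 0.09 and -0.53 against Fz7-21S. Rarg was called against both (0.74 and 0.71, adjusted p = 0.028 and 0.036 in edgeR). Its dFz7-21 level was 15.6 CPM in replicate 3, which held mesenchymal transcripts, and at most 7.18 in the other 3 libraries. Without the 3 libraries that held such transcripts Rarg was at 0.27 and 0.25 and not called (adjusted p = 0.155 and 0.202).

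Several regulators of the pathway were close to the detection limit. Cyp26a1, which degrades retinoic acid and is a classical target of it, had at most 4 reads in any group of 4 libraries. Isx, the transcription factor that represses Bco1 and Scarb1 in mouse intestine, had at most 6. Cyp26b1 and Stra6 had at most 17 reads in a group. Crabp2, which delivers retinoic acid to its receptor, had 123 reads in dFz7-21 at 24 h, all in replicate 3, and 50 in DMSO at 6 h, of which 26 and 21 were in replicates 1 and 2, the pair with mesenchymal transcripts.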

How the data were processed

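RNA-seq of 24 libraries gave 1 table per library with counts and RPKM for 36528 Entrez gene IDs, as deposited by the authors. Per the submitters' processing notes, reads were aligned with GSNAP to GRCm38. No source used here states the counter, its use of strand or the annotation. The RPKM values deposited by the authors are the counts divided by length and depth, and they were used only to compare levels between genes. Symbols came from a gene name table that matched 31049 IDs, and IDs without a symbol held between 2.55% and 3.51% of the counts. No 2 replicates agreed within sampling noise.

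The deposited counts were fitted with edgeR 4.0.16 in R 4.3.3 (TMM normalization, filterByExpr over the 6 groups, robust quasi-likelihood F test, 15429 genes, 1 coefficient per group), after the script had been tested on simulated data. CPM values are counts per 1e6 reads of the TMM-scaled library. Of 9 comparisons 4 were tested and 5 described. Standard errors are the log2 fold change over the square root of F. Alternatives were RLE size factors, no filter, a replicate block, DESeq2 1.42.0, only the 2 groups compared, leaving out the 3 libraries with mesenchymal transcripts, and leaving out each replicate.

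The 9 genes, the lists of retinoid genes and markers and the 3 libraries left out were chosen with earlier results of these data known. Named besides the 9 genes are their closest paralog and overlapping genes, up to 6 other retinoid genes per tested comparison with the smallest called p, a fixed set of receptors, carriers and regulators whatever their result, and the 5 genes most like Aldh1a3 and Bco2. Results for some genes under this rule are not reported here. The wording of the longer promoter motif was set after the sequences were read. The intervals of fold changes come from the edgeR fit and include the spread between libraries, and the limits from counts of 0 cover counting error only.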

Additional observations from a re-analysis of the deposited data

Results flagged for a closer look

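Within groups of 4, Aldh1a3 in dFz7-21 at 6 h replicate 3 was far above the rest of its group at 43.8 CPM, where the other 3 libraries had at most 38.4 CPM. Dhrs3 in dFz7-21 at 24 h replicate 1 was far below its group at 19.1 CPM, where the other 3 had at least 22.1 CPM. These were 2 of 48 groups checked with Dixon's criterion, which chance passes in about 1 of 20 groups. Both libraries lie on the same side of all control libraries as the rest of their group.

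The differences of Rdh10 from both controls, and of Bco1 from Fz7-21S, had opposite signs at the 2 times, with every dFz7-21 library on 1 side of the libraries of that control at each time. For Rdh10 the log2 difference of dFz7-21 from DMSO was -0.24 at 24 h and 0.41 at 6 h, and from Fz7-21S it was -0.34 at 24 h and 0.19 at 6 h. For Bco1 the difference from Fz7-21S was 0.34 at 24 h and -0.38 at 6 h, and its dFz7-21 libraries overlapped with those of DMSO at 6 h. The differences between the times were not tested, since the 6 h values entered the choice of genes.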

How the results depend on the processing

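The members called at 24 h kept their direction and their side of the threshold under all 14 alternatives for Aldh1a1, Dhrs3, Bco1, Bco2 and Rdh10 against both controls and for Rbp2 against DMSO. Lrat crossed the threshold in both comparisons: against DMSO it was called with RLE size factors (0.31, adjusted p = 0.0413), DESeq2 (0.31, 0.0191), only the 2 groups (0.30, 0.0145), without dFz7-21 replicate 3 (0.33, 0.0447) or without DMSO replicate 2 (0.34, 0.0422). No call checked under the alternatives reversed in direction. Some small differences that were not called changed sign, such as Lrat for Fz7-21S against DMSO at 24 h (-0.13 to 0.02). Counts of all genes moved as follows, and the cause was not tested. Against Fz7-21S at 24 h, dFz7-21 had 5202 genes called, and 2305 with only the 2 groups. For Fz7-21S against DMSO at 24 h there were 40, and 136 with DESeq2, 0 with only the 2 groups and between 22 (without DMSO replicate 2) and 1390 (without Fz7-21S replicate 1) when a replicate was left out. The members called there numbered 0 to 2 when a replicate was left out. For Fz7-21S against DMSO at 6 h there was 1 gene, and 4 with DESeq2, 4 with only the 2 groups, 0 without the libraries with mesenchymal transcripts and 0 to 1 when a replicate was left out.

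At 6 h, without a filter on low counts, 2 members were at least 2-fold from DMSO and 1 from Fz7-21S. Against DMSO the added member was Aldh1a2, which rests on 0 reads under dFz7-21 and 4 under DMSO. Leaving out a replicate gave 0 to 1 from Fz7-21S, as Aldh1a3 lies at 0.99. With the replicate number as a block, 6 members were again called against each control at 24 h and 0 between the controls, and 5468, 5177, 35 and 1 genes were called in the tested comparisons. Deviations of same-numbered libraries correlated between -0.104 and 0.137, and in no comparison were all 4 above 0.1. The main fit did not pair libraries by number. Such correlations cannot show whether same-numbered libraries shared a culture or an animal, and the labels do not say. Depth limits Aldh1a2, Cyp26a1 and Isx, which had too few reads for a test, and Aldh1a3 at 24 h.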
